A study of Homo sapiens with 12 samples.

Results

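The 10 genes described here mark where a cell stands between an epithelial and a mesenchymal state. EPCAM and CDH1 are epithelial surface genes, CDH2, VIM and FN1 are mesenchymal genes, and ZEB1, ZEB2, SNAI1, SNAI2 and TWIST1 encode transcription factors that drive the mesenchymal state. They were chosen by name from the 20212 protein-coding genes of the count table, and all 10 had a row there. PANC-1, an established human pancreatic cancer line labelled as pancreatic duct, was exposed either to DMSO, the solvent control (3 cultures), or to 50 nM rapamycin, an inhibitor of the mTORC1 kinase complex, for 60 minutes (3 cultures). Each of the 6 cultures gave 1 library of ribosome-protected fragments (RF), the pieces of mRNA that ribosomes shield from nuclease, and 1 library of total RNA. The study describes this line as lacking the translational repressor 4EBP1, so every culture shared that background. The labels number the cultures without saying how they were separated, so the p-values measure only the spread between these samples, which may be technical.

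Epithelial cells adhere to each other through E-cadherin, the product of CDH1, which is tied to the actin cytoskeleton by catenins, and EPCAM is a membrane glycoprotein of epithelia and many carcinomas. In the epithelial-mesenchymal transition, ZEB, SNAI and TWIST factors bind E-box sequences, repress CDH1, and cells gain N-cadherin (CDH2), the intermediate filament protein vimentin (VIM) and the matrix protein fibronectin (FN1). Pancreatic carcinoma lines are known to span a range of such states. mTORC1 sets the translation of many mRNAs, most strongly of those that begin with a 5′ terminal oligopyrimidine (TOP) motif, a C at the cap followed by an unbroken run of pyrimidines.

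Since that motif is the best known mark of an mTORC1-sensitive mRNA, the first 20 bases of the coding isoform with the highest FPKM are shown for the 6 genes with at least 1 FPKM in every library. The sequences are from the GENCODE transcripts of GRCh37, 5′ to 3′, and capitals mark the run of pyrimidines at the very start.

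VIM: CTCTgccactctcgctccga

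CDH2: aagcagaaggaattatggga

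ZEB1: gtaaaccaggtgcggtgggg

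CDH1: agtggcgtcggaactgcaaa

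EPCAM: acagagcgctagtccttcgg

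SNAI1: attgcgccgcggcacggcct

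VIM alone among these opened with pyrimidines, a run of 4 that begins with C and then meets a G. None of the 6 opened with a C followed by at least 4 pyrimidines. The leading coding isoform opened that way, by its annotated start, in 4.57% of 10159 genes at 1 FPKM or more. An opening run of at least 4 pyrimidines of any kind, as in VIM, was present in 6.82% of these genes. The isoform shown carried 39.6% of the FPKM summed over the annotated isoforms of CDH2 and 33.8% of that of ZEB1. The annotated start can differ from the one that PANC-1 uses, and no file gave the measured 5′ ends.

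The RF libraries held between 278835 and 1574723 reads on genes, and the total RNA libraries between 78081241 and 94293744. A count of 0 allows up to 3 reads, which was 1.91 to 10.8 CPM (counts scaled to library size) in RF and at most 0.0384 CPM in total RNA. This limit covers counting error only and uses the library total alone. The CPM values of genes given below also carry TMM scaling between libraries. In the total RNA, DMSO replicates 1 and 2 stood apart from the other 4 libraries at scarce genes. Of 3101 genes with a mean under 10 reads, 72.9% and 72.6% had no read in these libraries, against 7.00% to 10.0% in the other 4. Both libraries were below all the others for 65.4% of those genes and for 65.9% of the 5212 genes with a mean of 10 to 200 reads, but for 7.69% of the 11751 genes with 200 reads or more. Of the 9 duct markers examined, 7 were at 1 FPKM or more in every library, and CFTR was under 0.1 FPKM on average. None of the acinar, endocrine, blood or endothelial markers measured reached 1 FPKM in any library, and of the fibroblast markers COL1A1 alone did, with a mean of 1.05 FPKM.

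The first question was which state PANC-1 was in. By total RNA per length, the mesenchymal genes VIM and CDH2 and the factor ZEB1 led the 10 genes, with CDH1, EPCAM and SNAI1 at intermediate levels and FN1, ZEB2, SNAI2 and TWIST1 under 1 FPKM (fragments scaled to transcript length and library size). In bulk RNA, fewer cells of a state and less RNA per cell cannot be told apart, so these levels are averages over each culture.

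VIM (ENSG00000026025, chr10:17270240-17279592 on the plus strand of GRCh37) stood at 2565, 2410 and 2485 FPKM in DMSO and at 2568, 2474 and 2505 FPKM in rapamycin. Its mean of 2501 ± 59.7 FPKM (SD, n = 6) was rank 4 of 20200 genes. A single coding isoform, ENST00000224237, carried 94.1% of it.

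CDH2 (ENSG00000170558, chr18:25512843-25757910, minus strand) had 24.7, 25.7 and 24.0 FPKM in DMSO and 25.6, 26.1 and 25.9 FPKM in rapamycin, a mean of 25.3 ± 0.787 (SD, n = 6). Its FPKM was divided over 3 coding isoforms, with means of 10.0, 9.14 and 5.86. ZEB1 (ENSG00000148516, chr10:31607424-31818742, plus strand), a zinc finger repressor of CDH1, had 22.7, 23.6 and 22.1 FPKM in DMSO and 23.0, 22.8 and 23.1 FPKM in rapamycin. CDH2 and ZEB1 were close in level, yet the 6 values of each did not overlap.

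CDH1 (ENSG00000039068, chr16:68771195-68869440, plus strand) had 7.32, 7.98 and 7.45 FPKM in DMSO and 7.36, 7.87 and 6.78 FPKM in rapamycin. The ratio of N-cadherin to E-cadherin RNA, CDH2 over CDH1 in FPKM, was 3.27 ± 0.0909 in DMSO and 3.53 ± 0.258 in rapamycin (SD, n = 3 each), and the ranges of the treatments overlapped. CDH1 RNA was therefore present in every culture beside ZEB1 RNA at about 3.07 times its level.

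EPCAM (ENSG00000119888, chr2:47572297-47614740, plus strand) had 4.80, 4.58 and 5.03 FPKM in DMSO and 4.79, 4.82 and 4.89 FPKM in rapamycin. Its full-length coding isoform ENST00000263735 carried 54.6% of this, and a transcript annotated as a retained intron, ENST00000490733, carried 31.6%. SNAI1 (ENSG00000124216, chr20:48599517-48605423, plus strand), the Snail repressor, had 3.32, 3.48 and 4.17 FPKM in DMSO and 3.47, 3.08 and 3.40 FPKM in rapamycin. These were intermediate levels, with 55.1% of all genes below EPCAM and 52.1% below SNAI1.

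The 4 scarce genes were FN1 (ENSG00000115414, chr2:216225163-216300796, minus strand), at 0.438 to 0.827 FPKM, ZEB2 (ENSG00000169554, chr2:145121931-145278624, minus strand), at 0.236 to 0.358 FPKM, SNAI2 (ENSG00000019549, chr8:49830157-49834299, minus strand), at 0.0772 to 0.177 FPKM, and TWIST1 (ENSG00000122691, chr7:19060614-19157259, minus strand). TWIST1 was listed at 0 in all DMSO libraries and in rapamycin replicate 3, and at 0.211 and 0.289 FPKM in rapamycin replicates 1 and 2. Within each factor pair 1 member was far above the other: ZEB1 over ZEB2 was 75.9 ± 14.4 and SNAI1 over SNAI2 was 31.3 ± 7.91 in FPKM (SD, n = 6). In the order of the 10 levels, SNAI2 and TWIST1 were the only neighbours whose values overlapped. In fibronectin the mesenchymal genes parted, since VIM over FN1 was 4073 ± 1191 in FPKM (SD, n = 6).

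**Figure D1:**
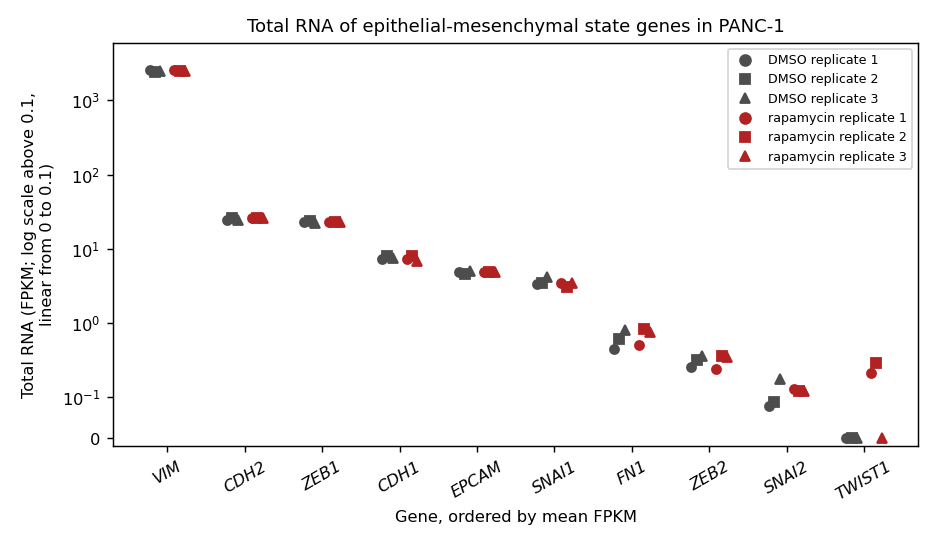
Total RNA of the 10 genes in the 6 libraries, in FPKM on an axis that is logarithmic above 0.1 and linear below, with marker shape for the replicate and colour for the treatment. VIM lies at 2410 to 2568 FPKM, about 98.8 times the mean of CDH2, and TWIST1 is at 0 in 4 libraries.

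The genes also differed in how many footprints they carried per RNA read. TE is here the RF CPM over the total RNA CPM of a culture, on a log2 scale with a prior count of 2. Reads were counted on all exons of a gene. Untranslated sequence and noncoding isoforms were therefore not set apart when TE was compared between genes. In the DMSO cultures, 5 of the 10 genes reached 30 footprints in sum. VIM had a log2 TE of -0.03 ± 0.12 (SD, n = 3), higher than 68.9% of the 8131 genes with that many footprints, whose median was -0.63. CDH1 and CDH2 were near the middle of that distribution, at -0.53 ± 0.64 and -0.55 ± 0.86, above 53.6% and 52.9% of genes. ZEB1 was lower, at -1.26 ± 0.42, above 28.6% of genes. EPCAM, at 0.36 ± 1.87, was above 76.8%, with a spread between cultures wider than the distance to the median.

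The second question was whether 1 hour of rapamycin changed the ribosome load of these mRNAs. None of the 8 members with at least 10 footprints passed edgeR's quasi-likelihood test for TE at an adjusted p of 0.05 (Benjamini-Hochberg over all genes), and neither did any of the 13329 genes tested (0.0%). At an unadjusted p under 0.05, 1 member was lower (EPCAM), where 6.61% of all genes were, and 1 was higher (SNAI1), where 6.04% were. Of the 8 members tested, SNAI1 was also the only one whose cultures did not overlap in TE. Such separation was found upward for 5.1% of the genes tested and downward, where none of the 8 showed it, for 5.84%. The joint test gives both library types the same dispersion, and on simulated counts with a wider spread in RF than in total RNA its unadjusted p-values were too small. The median log2 change in TE was -0.17 over the 8 members and -0.07 over all genes tested.

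EPCAM had the lowest estimate. Its RF libraries held 0, 12 and 35 reads in DMSO replicates 1, 2 and 3 and 1, 5 and 0 reads in rapamycin replicates 1, 2 and 3, which was 0, 15.1 and 23.7 CPM against 0.823, 5.99 and 0 CPM. The 2 zero counts came from the 2 smallest libraries, where they allow up to 9.89 CPM in DMSO replicate 1 and 10.8 CPM in rapamycin replicate 3 by library total alone. On the scale of the gene values, 3 reads were 9.93 CPM in rapamycin replicate 3. The treatments overlapped because of the DMSO library without a read, while the other 2 DMSO values lay above all rapamycin values. Total RNA reads for EPCAM numbered 763, 742 and 696 in DMSO and 679, 570 and 718 in rapamycin, and these overlapped too.

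The fitted log2 change of EPCAM was -2.75 ± 0.805 (SE) in TE, with an unadjusted p of 0.00412 and an adjusted p of 0.231 in edgeR's test. In RF alone it was -2.38 ± 1.29, with an unadjusted p of 0.0827, and in total RNA it was -0.08 ± 0.0678. The difference in mean log2 TE between the cultures, with the prior count of 2, was smaller, at -1.28 (-1.70 with a prior count of 0.5). The exact two-sided permutation test of log2 TE gave p = 0.4, where the smallest p for 3 against 3 is 0.1. DESeq2's Wald test placed EPCAM past the threshold, with an adjusted p of 0.00131, in a fit that called 1236 genes in all, 582 lower and 654 higher. That fit also gave both library types the same dispersion, and in RF alone DESeq2's test did not call EPCAM (log2 change -2.43). By limma voom, with the variance set apart by library type, the TE estimate was -2.40, with an adjusted p of 0.728. Leaving out single cultures moved the EPCAM estimate between -4.74 (without rapamycin replicate 2) and -1.97 (without rapamycin replicate 1).

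SNAI1 had the highest estimate, opposite in sign to EPCAM. Its RF reads numbered 2, 12 and 2 in DMSO and 23, 14 and 7 in rapamycin, or 6.15, 15.1 and 1.35 CPM against 18.9, 16.8 and 23.2 CPM. Every rapamycin culture was thus above every DMSO culture, but the closest pair, 15.1 and 16.8 CPM, rested on 12 and 14 reads. Its total RNA went the other way without separating, at 551, 574 and 656 reads in DMSO and 560, 432 and 510 in rapamycin.

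For SNAI1 the log2 change in TE was 1.72 ± 0.627 (SE), with an unadjusted p of 0.0156 and an adjusted p of 0.287 in edgeR's test. In RF alone it was 1.38 ± 0.952, with an unadjusted p of 0.167, and in total RNA -0.16 ± 0.0924. The difference in mean log2 TE between the cultures was 1.56, and its exact permutation test gave p = 0.1, the smallest it can give. The adjusted p in TE was 0.0105 by DESeq2, again with a shared dispersion, and 0.728 by limma voom. In RF alone DESeq2's test did not call SNAI1 (log2 change 1.39). Leaving out single cultures moved edgeR's TE estimate between 0.61 (without DMSO replicate 3) and 3.25 (without DMSO replicate 2).

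CDH1, to whose promoter SNAI1 and ZEB1 are known to bind, had 4, 26 and 37 footprints in DMSO and 27, 22 and 5 in rapamycin. In CPM these were 12.3, 32.8 and 25.0 against 22.2, 26.4 and 16.6, and the rapamycin values all fell within the DMSO range. Its log2 change in TE was -0.15 ± 0.319 (SE), with an adjusted p of 0.875 in edgeR's test.

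CDH2, its mesenchymal counterpart, had 10, 85 and 92 footprints in DMSO and 88, 38 and 21 in rapamycin. These were 30.7, 107 and 62.2 CPM against 72.4, 45.5 and 69.5 CPM, again inside the DMSO range. Its log2 change in TE was -0.19 ± 0.424 (SE), with an adjusted p of 0.884 in edgeR's test.

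VIM was the member measured most closely, with 1305, 3376 and 6595 footprints in DMSO and 5514, 3446 and 1121 in rapamycin. In CPM it had 4012, 4258 and 4460 against 4539, 4129 and 3712, so the treatments overlapped throughout. The log2 change in TE was -0.06 ± 0.121 (SE), with an adjusted p of 0.875 in edgeR's test, the smallest SE of the 8 members. VIM, whose run of 4 pyrimidines fell short of a C followed by at least 4, had the most footprints of the 8 members. Its log2 change in TE was the smallest of the 8 in edgeR's fit. By the difference in mean log2 TE between the cultures, CDH1 was closer to none, at 0.016 against -0.034 for VIM. Any effect of the run was not tested.

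ZEB1 had 13, 17 and 43 footprints in DMSO and 26, 21 and 7 in rapamycin, or 40.0, 21.4 and 29.1 CPM against 21.4, 25.2 and 23.2 CPM. Its log2 change in TE was -0.26 ± 0.359 (SE), with an adjusted p of 0.808 in edgeR's test. FN1 had 1, 0 and 10 footprints in DMSO and 2, 7 and 0 in rapamycin, and ZEB2 had 0, 1 and 3 against 2, 4 and 2. With so few reads their log2 changes in TE, -0.43 ± 1.18 and 0.81 ± 1.16 (SE), had wide errors. SNAI2 (0, 0 and 1 footprints against 0, 0 and 3) and TWIST1 (0, 1 and 0 against 2, 0 and 0) were too scarce to be tested in RF or TE.

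**Figure D2:**
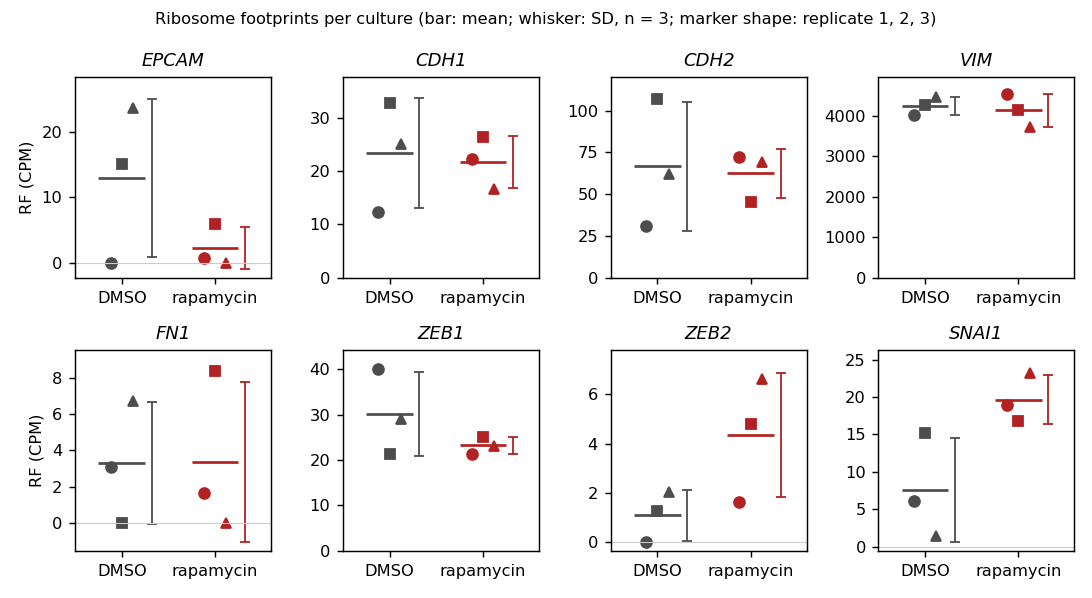
RF in CPM for the 8 genes tested, per culture, with the mean as a bar and the SD (n = 3) as a whisker, and a separate vertical axis for each gene. SNAI1 is the only gene whose rapamycin cultures, at 16.8 to 23.2 CPM, all lie above the DMSO cultures, and 2 of the 3 EPCAM values in DMSO lie above all 3 in rapamycin.

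In RF alone, edgeR's test called no member and no other gene of the 13343 tested (0.0%). No member had an unadjusted p under 0.05, where 2.0% of genes were lower and 1.73% higher. Cultures did not overlap for 1 member, SNAI1, which was higher, against 5.19% of genes higher and 4.28% lower. DESeq2's Wald test called 5 genes in RF, none of them a member. The median log2 change in RF over the 8 members was -0.08, and 0.01 over all genes.

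**Figure D3:**
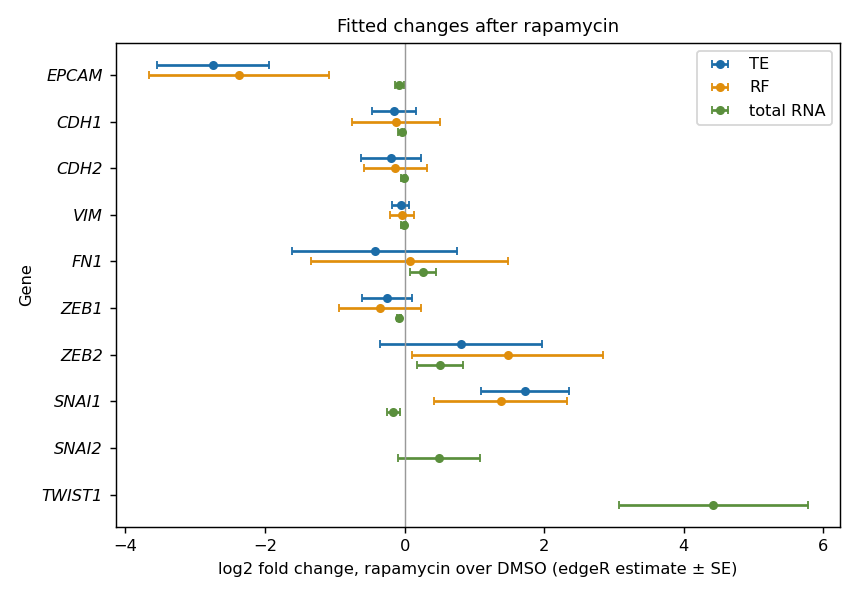
Fitted log2 changes after rapamycin in TE, RF and total RNA from edgeR, with the SE as a whisker, by gene. EPCAM (-2.75) and SNAI1 (1.72) lie farthest from 0 in TE, VIM has the narrowest TE whisker, SNAI2 and TWIST1 have no RF or TE estimate, and the positive total RNA estimates of ZEB2 and SNAI2 turn negative without the 2 DMSO libraries that stood apart.

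The third question was whether the RNA of these genes changed within the hour. All 10 were tested in total RNA, and none passed at an adjusted p of 0.05, nor did any of the 19630 genes tested (0.0%). DESeq2's Wald test called 31 genes, none of them a member. At an unadjusted p under 0.05, ZEB1 was lower (4.97% of all genes were) and TWIST1 was higher (3.35% were). The same 2 members had cultures that did not overlap, against 9.84% of genes lower and 11.5% higher. The median log2 change was -0.01 over the members and 0.02 over all genes.

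VIM, CDH1, CDH2, EPCAM and SNAI1 had estimates between -0.16 and -0.01, and FN1 had 0.26 ± 0.185 (SE). VIM had 414483, 388708 and 380231 reads in DMSO and 399732, 334370 and 372254 in rapamycin, and its log2 change was -0.01 ± 0.0358 (SE). ZEB1 had 7023, 7081 and 6672 reads against 6607, 5603 and 6296, or 76.1, 76.8 and 75.3 CPM against 72.9, 70.9 and 72.1 CPM. All rapamycin libraries were thus lower, with a log2 change of -0.08 ± 0.0333 (SE), an unadjusted p of 0.0384 and an adjusted p of 0.583 in edgeR's test. In FPKM, a separate quantification given above, the ZEB1 values overlapped, and the limma-trend estimate on log2(FPKM + 1) was 0.01.

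TWIST1 had 0, 0 and 6 reads in DMSO and 68, 52 and 10 in rapamycin. Most of its reads were in rapamycin replicates 1 and 2, and rapamycin replicate 3 was close to DMSO replicate 3. The log2 change was 4.42 ± 1.35 (SE), with an unadjusted p of 0.00898 and an adjusted p of 0.583 in edgeR's test. Both libraries at 0 were those that stood apart at scarce genes, and without them the estimate was 2.88, with an adjusted p of 0.999.

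ZEB2 had 71, 77 and 165 reads in DMSO and 120, 143 and 157 in rapamycin, and SNAI2 had 18, 18 and 38 against 33, 36 and 29. For both, DMSO replicates 1 and 2 were the lowest libraries, as they were for most genes of this abundance, and DMSO replicate 3 had the most reads before scaling. The log2 changes were 0.51 ± 0.333 and 0.49 ± 0.587 (SE) with all libraries, and -0.18 and -0.16 without those that stood apart. In FPKM, ZEB2 averaged 0.306 in DMSO and 0.314 in rapamycin and SNAI2 0.114 and 0.122, with limma-trend estimates of 0.0080 and 0.011 on log2(FPKM + 1). The direction for ZEB2 and SNAI2 thus turned without these libraries. Without DMSO replicate 3 instead, ZEB2 (log2 change 1.04) and TWIST1 (8.49) passed edgeR's test with adjusted p-values of 0.00289 and 0.0338, in a fit that called 3899 genes, 3807 of them higher.

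**Figure D4:**
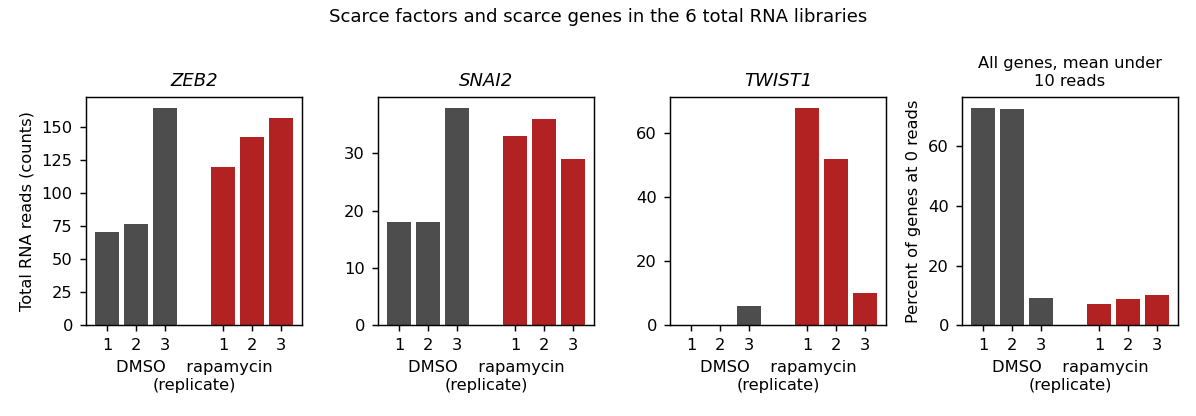
Total RNA reads of ZEB2, SNAI2 and TWIST1 in the 6 libraries, and the percentage of all genes with a mean under 10 reads that had no read in the same libraries. DMSO replicates 1 and 2, at 72.9% and 72.6% without a read, are also the lowest libraries for each of the 3 factors.

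Wider lists of genes of the same kind put these values in context. Of 25 epithelial genes, 17 were at 1 FPKM or more in every library, led by the simple-epithelium keratins KRT8 (1718 ± 36.7 FPKM), KRT18 (1566 ± 46.3) and KRT19 (1378 ± 39.6; SD, n = 6). The RNA of these keratins was thus high as well, though each was below VIM in every library, whose mean was 2501 FPKM. Of 26 mesenchymal genes, 17 were at 1 FPKM or more, led by the hyaluronan receptor CD44 (713 ± 73.6) and the calcium-binding protein S100A4 (614 ± 19.3). Of the 6 genes of the cadherin-catenin list, all but CTNNA2 had a mean of at least 47.1 FPKM, with the GTPase CDC42 (193 ± 7.25), CTNNA1 (144 ± 3.96) and CTNNB1 (98.8 ± 2.79) highest. Among 15 further regulators of the transition, ID1 (356 ± 17.4), HMGA2 (44.8 ± 3.83) and TCF3 (41.0 ± 1.42) were highest.

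No gene of the 4 lists passed edgeR's test for TE, RF or total RNA at an adjusted p of 0.05. The median log2 change in TE was 0.08 over 21 epithelial genes tested, -0.03 over 22 mesenchymal genes, -0.23 over 5 cadherin-catenin genes and -0.18 over 12 regulators, beside -0.07 over all genes. At an unadjusted p under 0.05 for TE, where 6.61% of all genes tested were lower and 6.04% higher, 1 of the 21 epithelial, 1 of the 22 mesenchymal, 1 of the 5 cadherin-catenin and 3 of the 12 regulator genes were found. The tight-junction gene CLDN7 was the epithelial gene. Its RF reads numbered 6, 1 and 31 in DMSO and 25, 32 and 20 in rapamycin, its cultures overlapped, and its log2 change in TE was 1.20 ± 0.546 (SE). In RF alone CLDN7 was at 1.57 ± 0.779 (SE), with an unadjusted p of 0.06 in edgeR's test. CD44 was the mesenchymal gene, with 1832, 1889 and 2013 RF CPM in DMSO and 1751, 1630 and 1659 CPM in rapamycin. All rapamycin cultures were lower for CD44, with a small log2 change in TE of -0.33 ± 0.146 (SE). In RF alone it was -0.19 ± 0.177, with an unadjusted p of 0.308 in edgeR's test, and in total RNA 0.11 ± 0.0814. One library stood out in the total RNA of CD44, rapamycin replicate 2 at 1986 CPM. The other rapamycin libraries had 1596 and 1576 CPM, and those of DMSO 1604, 1595 and 1569 CPM.

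CDC42, which links cadherin contacts to actin, had 277, 224 and 214 RF CPM in DMSO and 163, 153 and 172 CPM in rapamycin, with a log2 change in TE of -0.51 ± 0.178 (SE). Among the regulators, the deacetylase SIRT1 had 58.4, 54.2 and 54.1 RF CPM in DMSO and 23.1, 24.0 and 33.1 CPM in rapamycin, a log2 change in TE of -1.10 ± 0.309 (SE). ID2, an inhibitor of E-box-binding factors, had 24.6, 36.6 and 23.7 RF CPM against 14.8, 14.4 and 13.2 CPM, a log2 change in TE of -0.95 ± 0.343 (SE). For CDC42, SIRT1 and ID2 every rapamycin culture was below every DMSO culture, and the adjusted p-values in edgeR's TE test were 0.272, 0.231 and 0.287. In RF alone the log2 changes of CDC42, SIRT1 and ID2 were -0.55 ± 0.249, -1.08 ± 0.478 and -0.99 ± 0.651 (SE). The unadjusted p-values in edgeR's RF test were 0.0426, 0.037 and 0.148. Over the tested genes of the 4 lists, the same downward separation in TE was found for MUC1 and CD44, and an upward one for HMGA2 and FSCN1, against 5.84% of all genes lower and 5.1% higher. HMGA2 had 40.0, 24.0 and 42.6 RF CPM in DMSO and 44.5, 65.9 and 46.4 CPM in rapamycin. Its log2 change was 0.48 ± 0.325 (SE) in TE and 0.56 ± 0.473 in RF alone. FSCN1, an actin-bundling protein, had a log2 change in TE of 0.35 ± 0.193 (SE), and MUC1, a membrane mucin, -1.81 (SE 1.0). In RF alone FSCN1 was at 0.34 ± 0.237 and MUC1 at -1.47 ± 1.12 (SE). The MUC1 cultures overlapped in RF, and its total RNA was at 0.44 ± 0.332 (SE). The Polycomb gene BMI1 was in the other direction, with 9, 1 and 13 RF reads in DMSO and 49, 23 and 3 in rapamycin. It had a log2 change in TE of 1.66 ± 0.679 (SE) and overlapping cultures. In RF alone BMI1 was at 1.28 ± 0.891 (SE), with an unadjusted p of 0.17 in edgeR's test.

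**Figure D5:**
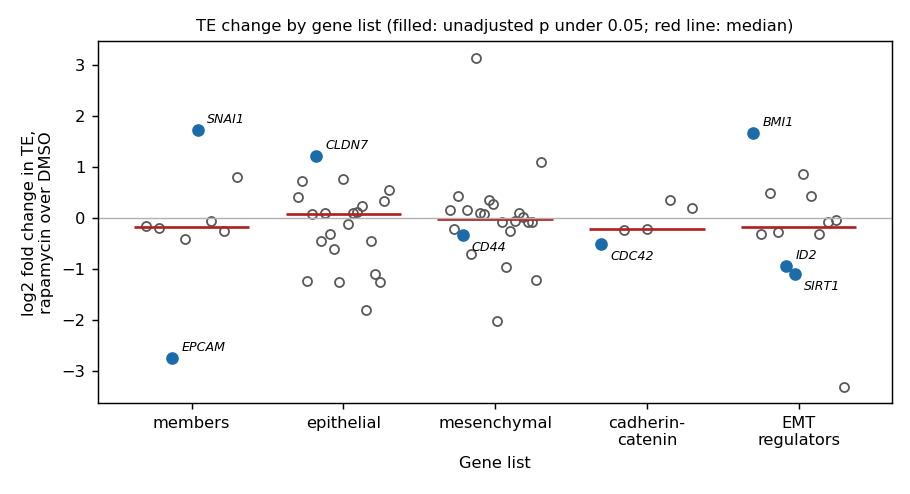
Log2 change in TE after rapamycin for each tested gene of the 10 members and of the 4 lists, with filled points at an unadjusted p under 0.05 and a red line at the median. The medians lie between -0.23 and 0.08, and no point passed at an adjusted p of 0.05.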

How the data were processed

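RF and total RNA of 3 DMSO and 3 rapamycin cultures of PANC-1 were analysed, with groups and replicate numbers taken from the sample labels. The authors deposited raw counts per protein-coding gene: reads were aligned to GRCh37 with HISAT2, after removal of linkers and ribosomal RNA from RF, and uniquely aligned reads on exons were counted with featureCounts. The versions of both tools and the strand setting are not given in the sources used here, so reads of antisense transcripts at loci such as ZEB1, ZEB2 and VIM could not be set apart. For total RNA, gene and isoform FPKM values from Cuffnorm were deposited, with Cufflinks 2.2.1 named in the submitters' processing notes. Columns of the authors' own comparison (RF over RNA ratios, their log2 fold change, p-value and adjusted p-value) and the normalized counts from Cuffnorm were not used. Coordinates, isoform types and 5′ ends were from GENCODE annotation of GRCh37, whose version differs from the authors'.

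Counts were analysed with edgeR 4.0.16 in R 4.3.3, with TMM scaling within each library type. Genes with at least 10 reads summed over RF and at least 10 over total RNA entered the TE test, a quasi-likelihood test of the treatment by library type interaction over all 12 libraries, and RF and total RNA were also tested alone. The common biological coefficient of variation was 54.9% for RF, 6.14% for RNA and 24.4% when both were fitted together with 1 dispersion per gene. The RF test alone is therefore given beside TE for EPCAM and SNAI1, and for the list genes named for a change or separation in TE. Adjusted p-values of edgeR and limma were corrected by Benjamini-Hochberg across every gene of the test. Those of DESeq2 were its own adjusted values at default settings, which can leave genes out of the correction. Single-culture values used a two-sided exact permutation test (scipy 1.17.1). The tests were tested on simulated data, where the unadjusted p-values of the joint TE test were too small when RF had the wider spread. Alternatives were DESeq2 1.42.0, limma voom, with the variance set apart by library type, a culture term in the TE model, limma-trend (limma 3.58.1) on FPKM, other filters and scalings, a replicate block, leaving out each culture and, chosen after seeing the data, leaving out the total RNA of DMSO replicates 1 and 2.

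Named genes were all 10 members and, from each list, the 3 with the highest mean FPKM and up to 3 in each direction with the smallest unadjusted p under 0.05 for TE. CTNNA2, FSCN1, MUC1, CFTR and COL1A1 were named after their values were seen. Some values of single list genes are not reported here. Members and lists were chosen with earlier results of these data known.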

Additional observations from a re-analysis of the deposited data

How the results depend on the processing

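The depth of the RF libraries was a limit: outside VIM, no member exceeded 92 footprints in a library. DESeq2's Wald test called 1236 genes in TE, 5 in RF and 31 in total RNA, where edgeR called 0 in each. For TE, limma voom and a culture term each called 0 genes, with 899 and 480 at an unadjusted p under 0.05, and gave EPCAM adjusted p-values of 0.728 and 1.0. With no minimum beyond 1 count, 20 genes were called in RF, and limma-trend called 1 gene in total RNA on log2(FPKM + 1) and 1 on log2(FPKM + 0.1). Leaving out single cultures gave 0 to 398 genes in TE, the highest without DMSO replicate 3 (5 without rapamycin replicate 1), 0 to 5 in RF, and 0 to 3899 in total RNA, the highest again without DMSO replicate 3. Same-numbered cultures did not deviate together (r between -0.13 and 0.01), so the numbers were not read as pairs. With the replicate block, 0 genes were called in TE, 6 in RF and 0 in total RNA, and CDH2 in RF was at 0.0022.

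Signs turned for the estimates below, none of which passed edgeR's test with all libraries. In total RNA by limma-trend under its 3 settings, EPCAM was at 0.0090, 0.0075 and 0.0075, CDH2 at 0.060, 0.058 and 0.058, VIM at 0.017, 0.017 and 0.017, and ZEB1 at 0.010, 0.0099 and 0.0099. Over the genes of the TE test, CDH2 was at 0.014 and VIM at 0.018, and with DESeq2's Wald test or size factors VIM was at 3.07e-05 and 2.8e-05. Without the total RNA of DMSO replicates 1 and 2, CDH2 was at 0.0033, VIM at 0.0038, ZEB2 at -0.18 and SNAI2 at -0.16. Leaving out single cultures moved the log2 change in TE of CDH1 from -0.31 to 0.031, of CDH2 from -0.43 to 0.20, of VIM from -0.11 to 0.023 and of FN1 from -1.70 to 1.69. In RF it moved CDH1 from -0.37 to 0.16, CDH2 from -0.43 to 0.35, VIM from -0.11 to 0.046 and FN1 from -1.49 to 1.60. In total RNA it moved CDH2 from -0.014 to 0.0094 and VIM from -0.030 to 0.016. The causes were not tested.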

Other observations

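CALD1, which encodes the actin-binding protein caldesmon and was named after its values were seen, carried many footprints for its total RNA in every culture. It had 70 to 233 footprints and 811 to 987 total RNA reads, a log2 TE of 3.97 to 4.996. A log2 TE above 3 in all 6 cultures was found for 7.47% of the 10385 tested genes with at least 30 footprints. The difference in log2 TE between treatments did not pass edgeR's test for CALD1.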
